A study of Mus musculus with 13 samples.

Results

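The small RNAs described here are reads of 24 to 33 nt from mouse male germ cells that do not start with T (U in the RNA) and have A at position 10, counted from 1 at the 5′ end. They were chosen by these letters alone, and they comprise 1064132 of the 10835345 distinct 24-33 nt sequences found in all samples together. A further 7254025 sequences start with T, and 2517188 start with another base and lack A at position 10. The cells came from C57BL6/J mice aged 3 to 4 weeks and were sorted by FACS (fluorescence-activated cell sorting) after staining of the DNA with Hoechst-33342. A first set of 5 libraries without technical replicates comprises spermatogonia (SG, the dividing precursors, 1 library), leptotene/zygotene spermatocytes (LZ, early meiosis, 2 biological replicates), pachytene/diplotene spermatocytes (PD, later meiosis, 1 library) and round spermatids (RS, haploid cells, 1 library). A second set of 8 libraries comprises spermatogonia (SG_T) and leptotene/zygotene spermatocytes (LZ_T), each with 2 biological replicates that were sequenced 2 times, and the reads of such technical replicates were added. No label gives a genotype. The study compared wild-type cells with cells that lack Pld6, a mitochondrial enzyme of piRNA production, and the summary tables of the second set carry a Pld6KO tag in their header cells, so a difference between the sets includes that tag and whatever else separates them.

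PIWI-interacting RNAs (piRNAs) guide PIWI proteins to RNAs of retrotransposons and other transcripts in germ cells. Primary piRNAs usually start with U. When a piRNA guides the cutting of a complementary RNA, the cut lies opposite the bond between its bases 10 and 11, and the 3′ piece can become the 5′ end of a secondary piRNA. Such a secondary piRNA overlaps its guide by 10 bases and therefore has A at position 10, opposite the first U of the guide. This exchange between opposite strands is called the ping-pong cycle. In the fetal testis it works on retrotransposon RNAs, while the abundant piRNAs of pachytene spermatocytes and round spermatids come from long noncoding precursors with few partners on the opposite strand. Degradation products of ribosomal, transfer and other structural RNAs also fall into this length range and can have the same 2 letters, so the letters do not show how a read was made.

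The sequences below show what these reads are. The first 10 letters are in capitals because they are the letters compared with the first 10 letters of a T-starting read. N numbers name reads with A at position 10 and U numbers name T-starting partners, and positions are those of annotated mouse transcripts on GRCm38. The named reads of spermatogonia and leptotene/zygotene cells included N1 from 5S ribosomal RNA (chr4:53860742-53860771 as its first annotated copy), N4 from the Y RNA Rny1 (chr6:47788071-47788098), N14 from the mitochondrial ribosomal RNA mt-Rnr2 (chrM:1094-1117) and N19 from Rpph1, the RNA of RNase P (chr14:50807452-50807475).
N1: CCGCCTGGGAataccgggtgctgtaggctt
N4: CTTCTCACTActgcacttgactagtctt
N14: ACTAATCCTAgccctagccctaca
N19: ACCCAATTCAgactactctccccc

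Reads of the later stages came from other places. N9 lies antisense to the transcript 5330409N07Rik (chr12:98447235-98447263, + strand), and its T-starting partner P9 lies on the opposite strand (chr12:98447214-98447244), so that their 5′ ends overlap by 10 bases. N25 matches 2 annotated places, of which the first lies in the unclassified transcript Gm42885 (chr5:134484741-134484770, - strand).
N9: GACCATTTCActcagactgtaaccatgac
P9: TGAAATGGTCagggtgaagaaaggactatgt
N25: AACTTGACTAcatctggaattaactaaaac

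The next 4 pairs have both reads at a single annotated position on opposite strands of the same transcript, with a 5′ overlap of 10 bases, and they were picked after the values had been seen. They lie in 4933440M02Rik (member chr7:125330661-125330692, partner chr7:125330642-125330670), in CT025671.4 (member chr17:66194885-66194916, partner chr17:66194865-66194894), in Gm37077 (member chr1:25758631-25758657, partner chr1:25758610-25758640) and in the noncoding transcript of Rab3gap1 (member chr1:127875729-127875755, partner chr1:127875712-127875738).
4933440M02Rik member: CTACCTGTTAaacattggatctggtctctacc
4933440M02Rik partner: TAACAGGTAGatatgggagtctgttcttc
CT025671.4 member: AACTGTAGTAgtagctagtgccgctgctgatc
CT025671.4 partner: TACTACAGTTcaaagtgagagagttcaaga
Gm37077 member: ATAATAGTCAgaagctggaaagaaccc
Gm37077 partner: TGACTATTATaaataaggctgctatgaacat
Rab3gap1 member: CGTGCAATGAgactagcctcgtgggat
Rab3gap1 partner: TCATTGCACGggatagagtgagtgtgt

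The last sequences show a pair of reads whose first 10 letters are complementary although their places are not. N34 lies in a noncoding transcript of Zfp389 (chr13:21504959-21504987, - strand), and its most abundant T-starting match U9 lies in 4933404O12Rik on another chromosome (chr5:136936860-136936888, + strand). Complementary first 10 letters alone therefore do not place both reads at the same locus.
N34: AGAATTCACActggagaaaaacgctatga
U9: TGTGAATTCTctgacgttgaatgagtttc

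The libraries held 1810805 to 29956080 reads per sample after technical replicates were added, of which 267971 to 13526260 were 24-33 nt long. The read lists were not filtered for ribosomal or other structural RNAs, and the list of SG had 1 line without a read count. Labels do not say whether biological replicates came from different mice, so tests measure the spread between these samples only, and 2 against 2 samples cannot give an exact permutation p below 0.33. Intervals on shares cover counting error alone. In sorted material, fewer cells that make an RNA and less RNA per cell cannot be told apart. Of 9 miRNAs chosen as cell markers, 6 were in the table of mature miRNAs. The spermatocyte miRNA miR-449a-5p was found at 2.63 RPM (reads per 1000000 reads of the library) for SG, 19.1 and 26.9 for LZ, 75.6 for PD, 95.1 for RS, 4.32 and 1.1 for SG_T and 8.36 and 7.80 for LZ_T, and miR-34b-5p was lowest in SG_T, at 0 RPM in both samples. The miRNA miR-202-5p, chosen as a Sertoli cell marker, was found at 126 RPM for SG, 9.41 and 21.8 for LZ, 298 and 231 for SG_T and 4321 and 2016 for LZ_T. The endothelial miRNA miR-126a-3p was found at 112, 31.5 and 73.1 RPM for SG and LZ, and at 435, 498, 548 and 767 for SG_T and LZ_T. The blood miRNAs miR-451a and miR-142a-3p stayed between 0 and 4.99 RPM in every sample. Both miR-202-5p and miR-126a-3p, chosen as markers of somatic cells, were thus higher in LZ_T than in LZ. Which cells made them, and their part in the differences between these groups, were not tested.

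Reads that start with A, C or G and have A at position 10 made up a smaller part of the 24-33 nt reads at the later stages and a larger part in the second set. The share was 8.36% for SG (95% Wilson interval 8.34 to 8.39), 6.72% and 8.05% for LZ, 4.96% for PD and 5.22% for RS. It was 18.5% and 15.4% for SG_T and 15.7% and 11.7% for LZ_T. All 4 samples of the second set lay above all 5 of the first. LZ_T exceeded LZ by 6.31 percentage points (13.7% ± 2.80 against 7.39% ± 0.94, SD, n = 2 each, two-sided exact permutation p = 0.33), with no overlap, and LZ_T and SG_T (17.0% ± 2.21, SD, n = 2) overlapped (difference -3.27 percentage points, exact permutation p = 0.667).
In RPM the order was different, because the later stages hold far more 24-33 nt reads. The reads came to 24954 RPM for SG, 30357 and 31669 for LZ, 41933 for PD, 43356 for RS, 42497 and 22797 for SG_T and 36771 and 19589 for LZ_T. The LZ_T values lay on both sides of the LZ values, so the higher share in LZ_T did not go with more of these reads. T-starting reads made up 36.1% and 42.3% of the 24-33 nt reads for LZ_T, against 74.8% and 72.1% for LZ. Among reads that do not start with T, A at position 10 was not more frequent in LZ_T (24.5% and 20.3%) than in LZ (26.7% and 28.8%). Counted as distinct sequences, each 1 time, the share was 7.84% to 9.01% in the 5 samples of the first set and 15.8% to 17.6% in the second.

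Most of these sequences were rare. Between 77.6% and 82.6% of them were read a single time in a sample, 902909 occurred in 1 sample only and 953 occurred in all 9 samples. The 953 shared sequences nevertheless held 26.8% of the reads with A at position 10 for SG, 23.3% and 27.1% for LZ, 53.1% and 41.2% for SG_T and 42.5% and 35.4% for LZ_T, and only 2.81% for PD and 4.19% for RS. Of the PD reads, 65.9% were of sequences also found in RS. The most abundant sequence took 11.1% of these reads in SG_T replicate 1 and 1.52% to 6.68% elsewhere.

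Among all reads that do not start with T, A stood at position 10 most often in PD and RS. A stood at position 10 in 24.5% of these reads in SG, 26.7% and 28.8% for LZ, 36.9% for PD and 39.7% in RS. In the second set the values were 27.0% and 22.7% for SG_T and 24.5% and 20.3% for LZ_T. To see whether position 10 stands apart, each share was divided by the mean share of A at positions 2 to 9 and 11 to 20 of the same reads. This ratio was 0.97 for SG, 1.02 and 1.11 for LZ, 1.28 for PD and 1.36 for RS, and 1.16 and 0.98 for SG_T and 1.01 and 0.85 for LZ_T. Among these 19 positions, position 10 came 12th in SG, 9th and 5th in LZ, 3rd in PD and 1st in RS for its share of A. In PD, positions 2 and 5 held A more often (40.2% and 39.4%). LZ_T and LZ did not overlap (difference -0.14, exact permutation p = 0.33), while LZ_T and SG_T did (-0.14, exact permutation p = 0.667). In PD and RS the higher share rested on abundant sequences. Among sequences read at least 100 times, A stood at position 10 in 50.6% of the PD reads that do not start with T and 51.4% of those of RS, against 17.1% for SG and 21.2% and 22.8% for LZ. Counted as distinct sequences, the shares in PD and RS were 31.9% and 33.5%, against 29.2% for SG and 29.6% and 31.6% for LZ. For comparison, reads that start with T had A at position 10 in 23.1% to 30.9%.

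Reads that lie antisense to an annotated transcript had A at position 10 more often than the mean of the other positions, though in PD and RS this rested largely on reads with the start of N9. Among such reads that do not start with T, A stood at position 10 in 50.2% for SG, 49.5% and 52.7% for LZ, 48.8% for PD and 42.1% in RS. In the second set it stood there in 31.3% and 34.6% for SG_T and 37.0% and 35.3% for LZ_T. Relative to the other positions the ratio was 1.79 for SG, 1.85 and 1.93 for LZ, 2.03 for PD and 1.92 for RS, and 1.2 and 1.43 for SG_T and 1.43 and 1.44 for LZ_T. The samples of the 2 sets did not overlap in this ratio. In RS position 6 held A more often (49.5%), and position 10 came 4th. The reads that share the first 24 letters of N9 made up 58.7% of the antisense reads with A at position 10 in PD and 69.1% in RS. Without the leading start of each sample, which is that of N9 in LZ, PD and RS, the share of A at position 10 was 46.2% for SG, 42.3% and 50.3% for LZ, 28.2% for PD and 18.4% for RS. The ratio was then 1.65 for SG, 1.55 and 1.82 for LZ, 1.14 for PD and 0.84 for RS, and 1.1 and 1.31 for SG_T and 1.13 and 1.05 for LZ_T, so that the sets overlapped. These reads are few, between 465 for SG_T replicate 2 and 37282 for RS. Reads in the sense of mRNAs had A at position 10 in 34.9% for SG, 36.0% and 40.1% for LZ, 45.4% for PD, 43.7% for RS, 29.0% and 34.9% for SG_T and 27.7% and 24.9% for LZ_T. The ratio of these mRNA reads ran from 0.92 (LZ_T replicate 2) to 1.55 (PD). Reads that matched small noncoding RNAs (ribosomal, small nucleolar, micro and other small RNAs) had ratios of 0.84 to 1.31. Without a transcript match, the ratio was below 1 in SG (0.84) and LZ (0.94, 0.98), but above 1 in PD (1.25) and RS (1.32). It was mixed in SG_T (1.22, 0.91) and LZ_T (1.07, 0.83). Sense matches to long noncoding RNAs gave 1.13 to 1.54 among first-set samples and only 0.53 to 0.75 among second-set samples.

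The first base of the reads with A at position 10 was most often A in every sample but SG_T replicate 1, where it was C. A came first in 39.7% of them in SG, 41.8% and 40.2% for LZ, 38.8% for PD, 40.8% for RS, 34.2% and 41.8% for SG_T and 41.2% and 40.9% for LZ_T. LZ_T did not stand apart from SG_T (difference 3.04 percentage points, exact permutation p = 1) or from LZ (0.05 percentage points, exact permutation p = 1). C came first in 28.4% to 36.1% in the first set and in 36.4% to 46.2% in the second, where SG_T replicate 1, with 46.2%, also held the largest share of N11, a read that starts with C. G came first in 24.2% to 32.8% in the first set and 19.7% to 22.6% in the second. Reads without A at position 10 had G first more often, in 33.2% to 43.1%.

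Lengths differed between the stages of the first set, and between the sets at the same stage. The most frequent length was 27 nt for SG and in both LZ samples, 30 nt for PD and RS, and 31 nt in all 4 samples of the second set. T-starting reads, and other reads without A at position 10, shared the change between stages. Their most frequent length was 27 nt for SG, 26 nt for LZ and 30 nt for PD and RS. In the second set it was 24 to 28 nt for them. MILI (PIWIL2), present in early and later male germ cells, binds shorter piRNAs than MIWI (PIWIL1), which is made from the pachytene stage on. Lengths of 25 to 28 nt made up 52.0% for SG, 50.3% and 50.6% for LZ, 30.7% for PD and 17.2% for RS, and 32.9% and 39.1% for SG_T and 39.9% and 46.1% for LZ_T. The mean length was 27.9 nt for SG, 27.98 and 28.05 nt for LZ, 29.1 nt for PD and 29.5 nt for RS. In the second set it was 28.9 nt and 28.3 nt for SG_T and 28.4 nt and 28.1 nt for LZ_T. LZ_T exceeded LZ by 0.21 nt without overlap (exact permutation p = 0.33) and was 0.36 nt below SG_T with overlap (exact permutation p = 0.667). The peak at 31 nt was sharp in SG_T replicate 1, where 22.1% of the reads had this length, which is that of N11.

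Matches to small noncoding RNAs took a larger part of the reads in early cells than at the later stages, and reads without a transcript match were the largest class in every sample. Matches to small noncoding RNAs took 24.9% of the reads with A at position 10 for SG, 20.1% and 24.8% for LZ, 1.74% for PD, 2.72% for RS, 25.9% and 27.2% for SG_T and 29.9% and 31.6% for LZ_T. Matches in the sense of mRNAs took 25.7% for SG, 18% and 20.9% for LZ, 6.11% for PD and 5.0% for RS, and 8.35% and 12.2% for SG_T and 12.6% and 14.8% for LZ_T. Such transcripts hold copies of retrotransposons, so a match does not show that the read came from the mRNA. Some annotated small noncoding RNAs hold letters of retrotransposons too, so matches to them are not structural RNA alone. Matches in the sense of long noncoding RNAs took 3.35% for SG, 4.33% and 4.99% for LZ, 6.61% for PD and 7.21% for RS, against 0.86% to 1.48% in the second set. Antisense matches took 1.64% to 2.93% in the first set and 0.26% to 1.19% in the second, again without overlap. No transcript matched 44.1% of the reads in SG, 55.3% and 46.9% for LZ, 82.3% for PD and 81.8% for RS, and 50.8% to 64.6% in the second set. In PD and RS, 13.8% of the reads in each differed only in the first base from a T-starting read at least 10 times as abundant, against 0.26% to 6.76% in the other samples.

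Among the most abundant sequences, N1 from 5S ribosomal RNA was prominent in early cells of both sets. It was found at 646 RPM for SG, 462 and 1136 for LZ, 75.7 for PD, 198 for RS, 643 and 466 for SG_T and 423 and 201 for LZ_T. N11 led SG_T and LZ_T, while its 2-nt longer form N2 came 2nd in SG and in LZ. Both come from the 5′ end of 28S ribosomal RNA as judged from general knowledge. N11 was found at 95.9 RPM for SG, 86.2 and 59.1 for LZ, 4.89 for PD, 31.2 for RS, 4707 and 907 for SG_T and 2458 and 915 for LZ_T. The second set lay above the first in every sample. N4 from Rny1, a small RNA bound by the Ro protein, was found at 135 RPM for SG, 61.9 and 94.5 for LZ, 1.2 for PD, 0.40 for RS, 227 and 140 for SG_T and 120 and 150 for LZ_T. It was lowest at the later stages, and its early values overlapped between the sets. N14 from mt-Rnr2 was found at 27.6, 13.1 and 21.4 RPM for SG and LZ, 3.69 for PD, 11.3 for RS, 190 and 27.1 for SG_T and 286 and 139 for LZ_T.

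PD and RS shared their 4 leading sequences, which were rare in spermatogonia and nearly missing from the second set. N7 (first letters CTCAAAGCCA) was found at 2.33 RPM for SG, 59.1 and 17.5 for LZ, 942 for PD, 733 for RS, and at 0, 0, 0 and 0.09 for SG_T and LZ_T. N8 (first letters AGGATCTTCA) was found at 3.61 RPM for SG, 59.1 and 35.0 for LZ, 786 for PD, 1456 for RS, 0.27 and 0 for SG_T and 0 and 0.28 for LZ_T. Neither matched an annotated transcript. N9, printed above with its partner, was found at 3.01 RPM for SG, 94.6 and 34.6 for LZ, 434 for PD, 506 for RS, 0.40 and 0.55 for SG_T and 0.32 and 0.19 for LZ_T. N10 (first letters CTCTTCTGTA), also without a match, was found at 0.98 RPM for SG, 20.2 and 9.45 for LZ, 218 for PD, 515 for RS, 0.54 and 0 for SG_T and 0.16 and 0 for LZ_T. In each case LZ lay between SG and PD.

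The design asked how many of these reads have a T-starting partner. A partner here is a 24-33 nt read that starts with T and whose first 10 letters are the reverse complement of the first 10 letters of the read. Only reads with A at position 10 can have such a partner, by the rule that chose them, so the share was set against the same share at overlaps of 11 to 15 nt, taken from reads with A at those positions. Shorter stretches match more often by accident and more partners are found in deeper samples, so all samples were compared at 267971 reads of 24-33 nt, the number in the smallest one. The T-starting reads among them, which are the possible partners, were not equal, since they made up 65.8% to 86.9% of the 24-33 nt reads in the first set and 31.5% to 42.3% in the second. At this depth 33.5% of the reads had a partner in SG, 36.8% and 36.0% for LZ, 39.4% for PD and 39.5% in RS. In the second set 3.17% and 4.09% had a partner in SG_T and 11.1% and 17.6% for LZ_T. All 4 samples of the second set lay below all 5 of the first. At an overlap of 11 nt the shares were 12.9% for SG, 10.8% and 14.5% for LZ, 13.4% for PD and 13.1% for RS, but 7.52% and 8.19% for SG_T and 17.4% and 20.4% for LZ_T. Matches by chance also become rarer with each further letter (the share for SG was 91.7% at 8 nt and 64.8% at 9 nt), so more matches at 10 nt than at longer overlaps do not by themselves show pairing. At 8 nt the share was 91.6% to 94.5% in the first set, but 61.9% and 46.5% for SG_T and 63.5% and 47.1% for LZ_T. The sets thus differed at this shorter overlap too. The following ratio describes the samples and does not separate pairing from matches by chance. The share at 10 nt divided by the mean at 11 to 15 nt was 5.79 for SG, 7.38 ± 1.49 for LZ (SD, n = 2), 9.02 for PD and 9.40 for RS, and 1.39 ± 0.11 for SG_T and 1.76 ± 0.22 for LZ_T (SD, n = 2 each). LZ_T was lower than LZ by 5.62 without overlap (exact permutation p = 0.33). LZ_T was higher than SG_T by 0.37 without overlap (exact permutation p = 0.33), a difference that turned to -0.64 with another draw of reads. Against the mean at 8, 9, 11 and 12 nt the ratio was 0.77 for SG, 0.85 and 0.83 for LZ, 0.88 for PD and 0.88 for RS, and 0.14 and 0.23 for SG_T and 0.36 and 0.70 for LZ_T. When T-starting reads and other reads were each drawn to the same number (85961 and 182010), a comparison added after the values had been seen, the shares at 10 nt were 24.6% for SG, 21.3% and 29.2% for LZ, 25.6% for PD and 22.8% for RS, and 3.53% and 4.09% for SG_T and 10.5% and 19.4% for LZ_T. The second set again lay below the first in every sample, and the 5 samples of the first set no longer followed the order of stages. Equal numbers of T-starting reads can still hold different numbers of distinct first 10 letters, which were not made equal. With all reads the shares reached 78.4% for SG, 94.9% and 91.0% for LZ, 91.8% for PD and 91.9% for RS, but 17.5% and 4.09% for SG_T and 21.7% and 30.8% for LZ_T.

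A few prefixes of 10 letters carried a large part of the pairs of reads. Multiplying the reads of both partners, the 3 leading prefixes held 36.4% of all read pairs in SG, 31.5% for LZ, 56.1% for PD, 59.4% for RS, 46.4% for SG_T and 89.6% for LZ_T. In PD the leading prefix was that of N25 with U6 (first letters TAGTCAAGTT), with 31.2% of the pairs. N25 was found at 2.86 RPM for SG, 84.6 and 35.5 for LZ, 206 for PD, 114 for RS, 0.13 and 0 for SG_T and 0 in both LZ_T samples. U6 was found at 2.94 RPM for SG, 30.4 and 27.0 for LZ, 144 for PD, 135 for RS and at most 0.13 in the second set. Both reads of this pair were highest in PD, and U6 matched no annotated transcript. In LZ_T the leading prefix was that of N13 (first letters AGATTTCTGA) with U10 (first letters TCAGAAATCT), with 46.4% of the pairs, followed by N16 with U11 (29.3%) and N37 with U12 (13.9%). The prefix of N13 with U10 also led in SG_T, with 21.1% of the pairs, followed by N35 with U11 (14.8%). N13, N16 and their partners match 240 or more annotated genes with the letters of the B1 element, a short interspersed retrotransposon (SINE) derived from 7SL RNA. N13 was found at 7.90 RPM for SG, 3.54 and 6.53 for LZ, 0 for PD and RS, 22.4 and 10.5 for SG_T and 261 and 286 for LZ_T. U10 was found at 0.98 RPM for SG, 0.97 and 2.46 for LZ, 0 for PD and RS, 3.78 and 3.87 for SG_T and 54.0 and 18.6 for LZ_T. Both reads of the pair were highest in LZ_T. In SG the leading prefix was that of N27 with U1 (21.2% of the pairs), also with B1 letters, and the next was N28 with U2 (7.93%). N28 was found at 16.9 RPM for SG, 5.54 and 15.2 for LZ, 0 for PD, 0.08 for RS and 0 in all 4 samples of the second set.

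Partners were also looked for by place, a measure chosen after the first had been seen. A read counted as paired when it lay on an mRNA or long noncoding RNA transcript and had a T-starting read on the other strand. The 5′ overlap had to be exactly 10 nt. Reads and partners that matched ribosomal, small nucleolar, micro or other small noncoding RNAs were left out. This removed U10, U11 and U12, the named partners of LZ_T. Of the reads on transcripts, 34.04% were paired in SG, 32.7% and 44.4% for LZ, 24.1% for PD and 22.1% in RS. In the second set 24.04% and 1.01% were paired in SG_T and 21.7% and 30.6% for LZ_T. Overlaps of 1 to 23 nt were measured in the same way. An overlap of 10 nt gave the highest share in all 5 samples of the first set, where the next highest was 20.2% for SG, 22.4% and 26.1% for LZ, 8.16% for PD and 4.48% for RS. It also gave the highest share in SG_T replicate 1, where the next highest was 10.4%, but not in SG_T replicate 2, where 1.01% at 10 nt compared with 4.04% at 9 nt and 1.52% at 11 nt. In LZ_T the overlap of 9 nt gave higher shares, 31.98% and 39.4%, and in replicate 2 that of 11 nt was level with 10 nt (30.60% beside 30.55%). Counted as distinct sequences, 10 nt gave the highest share in both LZ_T samples, 7.90% and 8.74%, beside 7.38% and 8.51% at 9 nt. Relative to the mean at 5 to 9 and 11 to 15 nt the share of reads at 10 nt was 2.21 for SG, 2.38 and 2.16 for LZ, 3.73 for PD and 7.06 for RS. It was 10.2 and 1.25 for SG_T and 1.54 in each LZ_T sample. LZ_T was lower than LZ by 0.73 without overlap (exact permutation p = 0.33). LZ_T and SG_T overlapped (difference -4.17, exact permutation p = 1), and SG_T replicate 1 alone set the sign of this difference.

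Reads with 1 shared start of 24 letters held much of these values in 3 samples. Those that share the first 24 letters of N5, a read found in 22 genes, took 82.5% of the paired reads of SG_T replicate 1 (167 sequences, 5921 reads, of which N5 itself had 1482). Those that share the start of N9 took 45.4% for PD (96 sequences) and 59.5% for RS (95 sequences), with N9 itself at 5773 of 9572 and 6348 of 10840 reads. The partner of N9 was read 1 time in PD (P9), and a 2-nt longer form was read 1 time in RS. Without the leading start of each sample the ratio was 2.12 for SG, 2.2 and 2.13 for LZ, 2.23 for PD and 3.21 for RS, and 2.18 and 1.14 for SG_T and 1.51 and 1.52 for LZ_T. When a partner had to be read at least 2 times, it was 2.62 for SG, 1.95 and 2.21 for LZ, 2.55 for PD, 3.61 for RS, 1.84 and 0.97 for SG_T and 2.15 and 1.68 for LZ_T.

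The pairs placed at a single annotated position were mostly faint. The 4933440M02Rik member was found at 0 RPM for SG, 1.00 and 0.17 for LZ, 0.75 for PD and 10.2 for RS, and its partner at 0 for SG, 0.20 and 0.17 for LZ, 2.41 for PD and 6.78 for RS. The CT025671.4 member was found at 0 RPM for SG, 0.20 and 0.11 for LZ, 0.68 for PD and 13.6 for RS, and its partner at 0 for SG, 0.10 and 0.29 for LZ, 1.05 for PD and 1.36 for RS. Both pairs were highest in RS, and none of their reads was found in the second set. The Gm37077 member was found at 3.31 RPM for SG, 0.97 and 2.46 for LZ and 0 elsewhere, and its partner at 1.28 for SG, 0.20 and 1.03 for LZ and 0 elsewhere. The Rab3gap1 pair was found in LZ_T, where its member was read 4 times in each sample and its partner 1 time in each. Its member was also found in LZ (0.13 and 0.52 RPM, beside 0.64 and 0.37 for LZ_T), and its partner was read 1 time in SG. Another pair found in LZ_T, in Gm44215, had 5 and 8 reads of the member and 7 and 8 of the partner. Both Gm44215 reads also occurred in SG (4 and 2 reads) and SG_T replicate 1 (1 and 2 reads). The search from the reads of SG_T gave no pair of this kind, but it covered only the most abundant paired starts of each group.

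Sequences were then compared individually between LZ_T and SG_T, to ask which of these reads differ between the stages within the second set. Counts of all 24-33 nt sequences were fitted together with edgeR's quasi-likelihood test. Of 2158 tested sequences with A at position 10, 70 rose in LZ_T and 3 fell (Benjamini-Hochberg adjusted p under 0.05). That is 3.24% higher and 0.139% lower, beside 5.07% higher and 0.0943% lower among all 13780 sequences tested. The median log2 change was -0.40 for these reads and -0.18 for all sequences. Groups without overlap were counted as well, with both LZ_T values higher for 256 reads (11.9%, beside 22.0% of all sequences) and lower for 470 (21.8%, beside 18.8%). The calls depended on each sample, since 4 were made without SG_T replicate 1 (all higher), 4 without SG_T replicate 2 (1 higher and 3 lower), 27 without LZ_T replicate 1 (all higher) and 1 without LZ_T replicate 2 (higher). With the replicate number as a block, 123 were higher and 37 lower.
Sequences that rose often shared letters with N13, a read named for its place in LZ_T. Of the 70, 34 matched small noncoding RNAs other than ribosomal, nucleolar and micro RNAs (of 188 tested), 22 matched mRNAs (of 190), 5 lay antisense to a transcript (of 11), 2 matched long noncoding RNAs (of 26) and 7 matched no transcript (of 1137). The other tested reads matched ribosomal (290), small nucleolar (269) or micro RNAs (47). Letters 5 to 18 of N13, which belong to B1, were found on either strand in 46 of the 70 (65.7%), beside 63 of the 2158 tested (2.92%), a feature looked for after N13 had been named. N13 was taken from the leading pair of LZ_T, so this count and the sums below cannot test whether B1 reads rose. Sequences with these letters can be offset or length forms of 1 fragment. Reads with A at position 10 and these letters summed to 90.1 RPM for SG, 29.9 and 59.1 for LZ, 0.38 for PD, 0.32 for RS, 108 and 61.3 for SG_T and 1079 and 1420 for LZ_T. Both LZ_T samples lay above every other sample. N13 itself rose by 4.04 ± 0.80 (log2, SE; adjusted p = 0.00251 by edgeR). N15, which shares its first letters, was found at 1.08 and 1.1 RPM for SG_T and 35.4 and 45.6 for LZ_T and rose by 5.19 ± 1.04. N16, a related read, was found at 6.88 and 3.87 RPM for SG_T and 77.0 and 122 for LZ_T and rose by 4.16 ± 0.88. N18, antisense to Gm20632 (chr3:96241433-96241458), was found at 1.21 and 1.1 RPM for SG_T and 23.3 and 22.7 for LZ_T and rose by 4.27 ± 1.04. N17 was not read in SG_T and was found at 4.66 and 7.43 RPM for LZ_T, at least 19.7-fold higher against a limit of 3 reads over the group. The 3 that fell were N19 from Rpph1, N20 and N21. N19 was found at 3.24 and 2.21 RPM for SG_T and 0 and 0.09 for LZ_T and fell by 5.22 ± 1.38 (log2, SE). N20 was found at 2.70 and 4.97 RPM for SG_T and 0.48 and 0.09 for LZ_T, and N21 at 1.75 and 1.66 for SG_T and 0.16 and 0 for LZ_T. The miRNA miR-202-5p, chosen as a Sertoli cell marker, was also higher in both LZ_T samples than in SG_T, and its part in these changes was not tested.

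Between LZ_T and LZ, which share the stage but not the set, 1152 of these reads rose and 1007 fell, a split that depended on the scaling and the filter. Of the 3527 tested, these are 32.7% higher in LZ_T and 28.6% lower, by the same edgeR test at an adjusted p under 0.05. Among all 48512 sequences tested, 17.6% rose and 63.3% fell, and among T-starting ones 9.15% rose and 81.3% fell. The median log2 change was 0.37 for the reads with A at position 10 and -7.04 for all sequences, and 0.37 and -2.72 when sequences not read in a group were set at the limit of 3 reads over the group. Both LZ_T values were higher than both LZ values for 1488 reads (42.2%, beside 22.4% of all sequences) and lower for 1234 (35.0%, beside 67.3%). The split moved with the scaling, with 53.4% of the called reads higher by library totals, 46.8% after TMM scaling and 38.9% by DESeq2. It moved to 30.0% with a looser filter (2307 higher and 5391 lower) and to 21.7% without LZ_T replicate 1. Of the 1007 that fell, 710 were not read in LZ_T at all, and of the 1152 that rose, 211 were not read in LZ.
The counts differed between classes of matches, but they were not made by class for all sequences, of which 17.6% rose and 63.3% fell. They therefore do not set reads with A at position 10 apart. Matches in the sense of long noncoding RNAs fell for 92 of 127 and rose for 13, and antisense matches fell for 34 of 58 and rose for 20. Ribosomal matches rose for 95 of 340 and fell for 22, small nucleolar ones rose for 71 of 396 and fell for 27, and other small noncoding RNAs rose for 103 of 258 and fell for 22. Matches to mRNAs rose for 193 and fell for 213 of 527. Reads that matched no transcript rose for 622 and fell for 564 of 1728. The first base made little difference, since 484 of 1619 reads that start with A rose and 463 fell, 332 of 973 with C rose and 274 fell, and 336 of 935 with G rose and 270 fell.
N25 in Gm42885, not read in LZ_T, was at least 377-fold lower there. N7 fell by 9.20 ± 1.28 (log2, SE; adjusted p = 5.7e-11 by edgeR) and N9 fell by 8.02 ± 1.08, the reads that lead PD and RS. N26 was found at 24.7 and 62.1 RPM for LZ and 0 and 0.19 for LZ_T and fell by 8.49 ± 1.19. It was also found at 58.6 RPM for SG and matched 119 genes. N15, not read in LZ, was at least 662-fold higher in LZ_T. N22, N23 and N24, all with B1 letters, were not read in LZ and were found at 1.11 to 1.77 RPM for LZ_T, at least 21.4-fold to 22.3-fold higher. The miRNAs miR-202-5p and miR-126a-3p, chosen as somatic markers, were higher in LZ_T than in LZ, and miR-449a-5p lower, and their part in these changes was not tested.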

How the data were processed

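Small RNA was sequenced from 13 libraries of 4 stages of sorted male germ cells. The authors trimmed adapters with cutadapt (version not given in the sources used here) and deposited, for each library, the raw read count of every distinct sequence of 11 nt and longer, without removal of structural RNAs. Their second files, scaled values summarised over retrotransposons, do not tell the letters of a read and were not used. Technical replicates (50-bp and 100-bp runs) were summed, which gave 9 samples with 1810805 to 29956080 reads. RPM is the read count per 1000000 reads of the library.

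Reads were matched without mismatches over their first 24 nt to GENCODE M21 transcripts (GRCm38) and RefSeq mouse miRNAs. No genome was used, the reference holds incomplete ribosomal and no transfer RNAs, and the build the authors used for these lists is not given in the sources used here. Unplaced sequences and those with many copies are given by their first 10 letters. Shares per sample were compared with two-sided exact permutation tests over samples. Counts of all 24-33 nt sequences that passed filterByExpr were fitted with edgeR 4.0.16 (quasi-likelihood test, library size equal to total reads, Benjamini-Hochberg adjustment, threshold 0.05) in R 4.3.3. DESeq2 1.42.0, TMM, other filters, length limits and left-out replicates were tried as alternatives, and the scripts were tested on simulated data. Python 3.11.15 with scipy 1.17.1 was used for the rest.

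The members and lists were chosen with earlier results of these data known. Sequences were named by rank, as the 4 with the highest mean RPM in each group, the 4 with the smallest adjusted p in each direction of each edgeR comparison, and the 3 prefixes with the most read pairs in each group. A sequence that shared its first 20 nt with a named one was passed over in that list. Pairs placed at a single position were taken, after values had been seen, as up to 3 of each group in order of abundance. This search covered only the most abundant paired starts with few transcript matches, and the most abundant reads with the complementary prefix. Places such as untranslated regions and splice junctions were left out.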

Additional observations from a re-analysis of the deposited data

Results flagged for a closer look

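N13, a read of 26 nt with B1 letters, was higher in LZ_T than in SG_T by 257.4 RPM (means of 2 samples each), while LZ was lower than SG by 2.87 RPM. It drew attention because both LZ_T samples (261 and 286 RPM) lay above both SG_T samples (22.4 and 10.5), whereas both LZ samples (3.54 and 6.53) lay below the SG library (7.90). The difference between these contrasts was not tested, since SG has 1 library.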

How the results depend on the processing

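The 24-33 nt reads numbered 267971 in the smallest sample, which limits partners found there, and SG, PD and RS have 1 library each. With 2 against 2 samples no exact permutation p can pass 0.05, so the directions below come without that support. Between RS and SG the share of reads with A at position 10 differed by -3.15 percentage points, and by -1.04 over distinct sequences, -3.39 over sequences read at least 2 times, -3.64 without the 10 most abundant sequences, -2.30 without small noncoding RNAs and -3.66 at 25-32 nt. The ratio for A at position 10 differed by 0.39, and by 0.0703 over distinct sequences and 0.53 over sequences read at least 2 times. The mean length differed by 1.59 nt, and by 1.32, 1.69 and 1.78 nt over distinct sequences, over sequences read at least 2 times and without small noncoding RNAs. First base A differed by 1.13 percentage points, and by -4.81 over distinct sequences, 2.38 over sequences read at least 2 times, -0.93 without the 10 most abundant sequences, 0.40 without small noncoding RNAs and 0.34 at 25-32 nt. The ratio of prefix pairing differed by 3.61, and by -0.40 with all reads, 6.64 with 2 partner reads, 8.67 at an equal number of T-starting reads (added after seeing the data), 0.12 relative to overlaps of 8, 9, 11 and 12 nt and 5.14 without small noncoding RNAs. The ratio of pairing on transcripts differed by 4.85, and by 0.99 with 2 partner reads, 0.53 over distinct sequences, 1.09 without the leading paired start, 2.16 at equal read number and 0.82 at 25-32 nt. For LZ_T minus SG_T, the prefix pairing ratio (0.37) became -0.74 with all reads, -0.64 with another draw and -0.34 without the 10 most abundant sequences, and the transcript ratio (-4.17) became 0.51 with 2 partner reads, 0.41 at equal read number, 0.70 in technical replicate 1 alone and 0.0947 at 25-32 nt, with -8.63 to 0.30 when a replicate was left out. First base A (3.04) ranged from -0.78 to 6.87 when a replicate was left out. For LZ_T minus LZ, first base A (0.05) became -0.36 in technical replicate 1 alone, -2.60 over sequences read at least 2 times, -2.85 without small noncoding RNAs and -0.48 at 25-32 nt, with -0.74 to 0.84 when a replicate was left out. For SG_T minus SG, the ratio for A at position 10 (0.10) became -0.0725 over distinct sequences and -0.0023 without the 10 most abundant sequences, and first base A (-1.69) became 5.80 over distinct sequences, 2.75 without the 10 most abundant sequences and 2.13 and -5.51 without SG_T replicate 1 and 2. The transcript ratio (3.50) became -1.21 with 2 partner reads, -0.47 without the leading paired start, -1.71 at equal read number, -0.79 in technical replicate 1 alone, -0.77 at 25-32 nt, and -0.96 and 7.97 without SG_T replicate 1 and 2. The cause of these changes was not tested. The share of reads with A at position 10, for LZ_T minus LZ, kept its direction under every alternative run.

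Of the sequences with A at position 10, 73 were called between LZ_T and SG_T, 158 after TMM scaling, 37 with a looser filter that tested more sequences, and 1 to 27 when a replicate was left out. Between LZ_T and LZ 2159 were called, 7698 with the looser filter (2307 higher, 5391 lower) and 1631 to 2380 when a replicate was left out. Relative to library totals, TMM moved the median log2 change of all sequences by 0.28 for LZ_T against SG_T and by -0.19 for LZ_T against LZ, and DESeq2 by 0.29 and 0.56. With the replicate number as a block (replicate block), 160 were called between LZ_T and SG_T (123 higher, 37 lower) and 2051 between LZ_T and LZ. Deviations of samples with the same number correlated at 0.25 and -0.08, with 2 pairs each, so the numbers were not taken to pair the samples. Of 58 values of named sequences between LZ_T and SG_T under alternatives, 26 lost the call and none changed direction, and of 68 between LZ_T and LZ all 68 kept it. These sequences were named for their small adjusted p in the same comparisons, so the counts cannot test how stable the calls are. Alternatives in which a sequence was not tested were not counted.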
